A study of Mus musculus with 27 samples.

Results

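Nuclear genes for the subunits of oxidative phosphorylation (OXPHOS) were followed through 19 bulk RNA-seq libraries of mouse pluripotent stem cells. The members were the entries of the expression table whose symbols start with Nduf followed by a, b, c, s or v and a number, with Uqcr, with Cox4 to Cox8 and a letter, or with Atp5 and a letter, together with Sdha, Sdhb, Sdhc and Sdhd. Of 89 matching symbols, 5 pseudogenes were left out, and 84 members of 23604 entries remained; the Ndufaf assembly factors were not members. By complex, 35 members belonged to complex I, 4 to complex II, 8 to complex III, 20 to complex IV and 15 to complex V, and 2 (Atp5s and Atp5sl) were placed outside the complexes.

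Oxidative phosphorylation makes ATP in the inner mitochondrial membrane. Complexes I and II pass electrons from NADH and succinate to ubiquinone, complex III passes them to cytochrome c, complex IV (cytochrome c oxidase) passes them to oxygen, and complex V (ATP synthase) uses the proton gradient that results. Complexes I, III, IV and V also hold subunits encoded by mitochondrial DNA, which are not analysed here, and several complex IV subunits exist as a broadly expressed form and a tissue-restricted form. Naive embryonic stem cells are known to respire actively, whereas primed pluripotent cells lean more on glycolysis.

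The study derived formative pluripotent stem cells (fPSCs) and set them beside other pluripotent states. All samples were labelled wild type. The mESCs (2 libraries) grew without feeders in 2i/LIF medium, the EpiLCs (2) were mESCs moved to Activin A, bFGF and serum replacement, and the EpiSCs (2) grew in Activin A, bFGF, serum replacement and XAV939 (a Wnt pathway inhibitor) on inactivated mouse embryonic fibroblasts. Epiblastoids at days 2, 3 and 4 (1 library each) were mESCs embedded in Matrigel in the EpiLC medium. The fPSCs were stabilized Epiblastoids in Matrigel with Activin A, bFGF and XAV939, sampled at passage (P) 1, P10, P20 and P30 of the CMT line, and fPSCs were also derived from E5.5 and E6.5 epiblasts (P10, 1 library each). In a second set of 4 libraries, the fPSCs came from the cryopreserved CMT line at P11 and from the lines 46C (P24, a Sox1-GFP reporter), BVSC (P14, a Blimp1 and Stella reporter) and ROSAmTmG (P12). The labels describe the library preparation of this second set in other words than that of the first, so that set and cell line cannot be told apart except for CMT. P10, P20 and P30 are called first-set fPSCs below, and the 4 later libraries second-set fPSCs. The labels do not say that replicates were separate cultures, so p-values measure only the spread between these libraries, and passages and lines stand in for replicates of fPSCs.

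Levels are in FPKM (mapped fragments scaled by transcript length and sequencing depth). Depth, estimated from the step between low values, was 14 to 39.5 M fragments per library. The markers followed the labels only in part. The 10 naive markers summed to 2973 and 3456 FPKM in mESCs and to 1.39 to 4.1 FPKM in the 7 long-term fPSC libraries. The 8 formative markers summed to 50.1 and 34.1 FPKM in mESCs, 284 and 294 in EpiSCs and 681 to 1134 in the other libraries. All 8 primed markers reached 1 FPKM in both EpiSC libraries, and at most 4 did elsewhere. Their sum did not set EpiSCs apart, at 110.2 and 114 FPKM there, 126 in Epiblastoids of day 4 and 116 in 46C. The 16 fibroblast markers summed to 721 and 874 FPKM in EpiSCs, with 12 and 13 of them at 1 FPKM or more and 0 of them at 0, against 2.47 to 37.8 FPKM in the other libraries. The EpiSCs were the cells grown on fibroblasts, and the part of fibroblast RNA in the EpiSC values below was not tested.

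Most members were expressed everywhere. Of the 84, 81 reached 1 FPKM in at least 1 library, 76 in all 19, and 67 stayed at 10 FPKM or more in all. The members below 1 FPKM throughout were Cox6a2, Cox8b and Cox8c, which are known as forms of striated muscle, brown fat and testis. Atp5b, the catalytic beta subunit of ATP synthase, ranged from 324 FPKM in fPSCs P1 to 1132 FPKM in mESCs replicate 1, and Sdha, the flavoprotein of complex II, ranged only from 64.9 to 94.5 FPKM, a ratio of 1.45. At the other end, Cox7a1 spanned a ratio of 98.2 and Ndufa4l2 a ratio of 108 between the lowest and highest library.

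The summed level of the members was highest in mESCs. It was 10288 and 11766 FPKM in mESCs, 5378 and 8427 in EpiLCs, and 5747 and 4449 in EpiSCs. It was 6533, 6885 and 6635 FPKM in first-set fPSCs, 8220, 8071, 7915 and 7784 in second-set fPSCs (CMT, 46C, BVSC and ROSAmTmG), and 7889 and 5755 in the fPSCs from E5.5 and E6.5 epiblasts. Neither mESC library overlapped with any other, the EpiLC libraries lay far apart, and the first-set and second-set fPSCs did not overlap. Epiblastoids had 8423, 9197 and 9371 FPKM at days 2, 3 and 4, and fPSCs P1 had 4851 FPKM, the lowest sum apart from EpiSCs replicate 2. The summed FPKM of all genes differed too, at 323465 to 341577 in first-set fPSCs, 365203 to 372022 in second-set fPSCs and 393821 and 414727 in mESCs. The members took 1.36 to 2.84% of the summed FPKM of a library. The share was 2.61 and 2.84% in mESCs, 1.68 and 2.2% in EpiLCs, and 1.7 and 1.36% in EpiSCs. It was 1.96 to 2.05% in first-set fPSCs and 2.12 to 2.21% in second-set fPSCs. In bulk RNA, fewer cells of one type and less RNA per cell cannot be told apart.

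Short transcripts moved with the members. The median transcript of a member was 687 nt long (322 to 2900 nt), and 49 members (58.3%) were under 800 nt, against 9.32% of the entries that reached 1 FPKM. The median log2 deviation of the members from their own mean over the 19 libraries was 0.48 and 0.71 in mESCs, −0.52 and 0.21 in EpiLCs, and −0.39 and −0.79 in EpiSCs. Other genes under 800 nt deviated in the same direction in those libraries but less, by 0.18 and 0.36, −0.21 and 0.13, and −0.19 and −0.37. Genes of the cytosolic ribosome, which are also short, deviated by 0.60 and 0.89, −0.37 and 0.35, and −0.52 and −1.05. A trend on transcript length was therefore fitted in each library over genes that are neither members nor ribosomal and was then removed. After that the members' deviations were 0.31 and 0.42 in mESCs, −0.40 and 0.08 in EpiLCs, −0.30 and −0.61 in EpiSCs, −0.11 to 0.00 in first-set fPSCs and 0.14 to 0.19 in second-set fPSCs. The 8 comparisons of replicated groups below are given for the members with and without this step, which was added after the data were seen; the single-library comparisons and the related lists are given without it. What makes short transcripts differ between libraries was not tested.

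**Figure D1:**
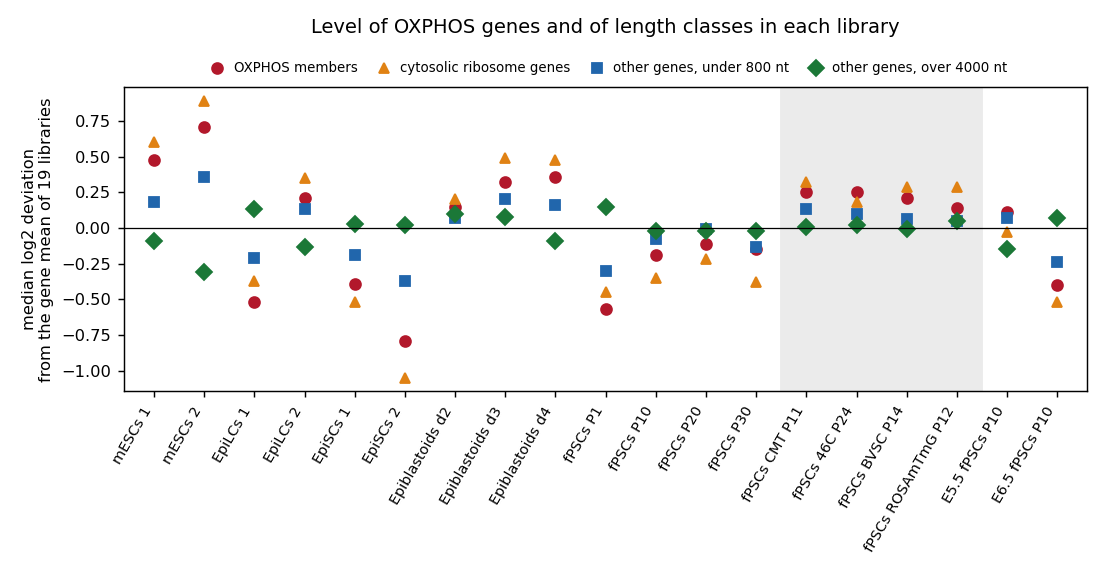
Median log2 deviation from each gene's own mean over 19 libraries (vertical axis) for the OXPHOS members, the cytosolic ribosome genes, other genes under 800 nt and other genes over 4000 nt, in each library (horizontal axis); grey marks the second protocol set. Members run from −0.79 in EpiSCs replicate 2 to 0.71 in mESCs replicate 2, and the short genes move the same way over a smaller range.

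Cox7a1, the heart and skeletal muscle form of subunit VIIa of complex IV, had the widest gap between mESCs and the other states. The gene lies on the plus strand at chr7:30969190-30971047 (mm9, GENCODE vM1), with a median transcript of 364 nt. It stood at 45.7 and 36.8 FPKM in mESCs, 1.28 and 1.88 in EpiLCs, 2.12 and 0.465 in EpiSCs, and 1.61, 1.37 and 2.33 in first-set fPSCs. Second-set fPSCs had 2.27 to 4.44 FPKM, and Epiblastoids had 3.98, 5.06 and 8.29 FPKM at days 2, 3 and 4. No other library came near either mESC library. On the log2(FPKM + 1) scale Cox7a1 changed by −4.04 ± 0.36 (SE) in EpiLCs, −4.30 ± 0.36 in EpiSCs and −3.94 ± 0.33 in first-set fPSCs against mESCs, with limma adjusted p = 1.50e-06, 3.88e-07 and 4.14e-07. All 3 calls held under every alternative tried, and the 3 comparisons share the mESC libraries. Its broadly expressed counterpart Cox7a2 had 88.8 and 109 FPKM in mESCs, 50.9 and 99 in EpiLCs, 63.9 and 32.8 in EpiSCs and 61.4 to 79.6 in first-set fPSCs. Of these, only the EpiSC difference was called (−1.08 ± 0.33, limma adjusted p = 0.0120), and it was no longer called without EpiSCs replicate 2 (−0.61) or without mESCs replicate 2 (−0.94).

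The start sites of this pair also differ in their CpG content. The windows below run from 250 bases before to 50 bases after the RefSeq start, with every CG in capitals, and are shown because chromatin at both sites was also measured; Cox7a1 lies at chr7:30183921-30184220 (plus strand) and Cox7a2 at chr9:79759804-79760103 (minus strand) of GRCm38.p6. The Cox7a1 window holds 7 CG pairs and that of Cox7a2 holds 20, where the median of the members is 19 and that of all windows is 7.
Cox7a1: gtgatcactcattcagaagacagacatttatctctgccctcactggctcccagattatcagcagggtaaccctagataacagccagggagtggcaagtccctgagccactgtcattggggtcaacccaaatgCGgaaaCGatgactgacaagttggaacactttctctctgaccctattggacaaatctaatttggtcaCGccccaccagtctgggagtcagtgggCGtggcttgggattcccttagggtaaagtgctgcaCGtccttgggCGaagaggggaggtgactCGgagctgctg
Cox7a2: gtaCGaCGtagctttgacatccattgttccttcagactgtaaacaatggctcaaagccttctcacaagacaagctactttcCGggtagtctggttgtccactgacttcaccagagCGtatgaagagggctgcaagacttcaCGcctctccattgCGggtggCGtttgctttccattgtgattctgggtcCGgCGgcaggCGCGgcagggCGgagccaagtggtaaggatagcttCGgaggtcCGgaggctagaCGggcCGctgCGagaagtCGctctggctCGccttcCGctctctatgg

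Ndufa4l2 and Cox6b2 also had their highest library among the mESCs. Ndufa4l2, a relative of the complex IV subunit Ndufa4 that is known to be induced by hypoxia, had 33.5 and 16.8 FPKM in mESCs, 3.19 and 4.35 in EpiLCs, 3.21 and 1.15 in EpiSCs and 0.645 to 1.92 in first-set fPSCs. It changed by −3.49 ± 0.72 in first-set fPSCs and −3.04 ± 0.79 in EpiSCs (limma adjusted p = 0.00110 and 0.00473), and both calls held under every alternative. The change of −2.39 ± 0.79 in EpiLCs (limma adjusted p = 0.0267) was not called without mESCs replicate 1 (−1.91) or without either EpiLC library (−2.21 and −2.56). Outside mESCs, Ndufa4l2 was high in single libraries, at 27.1 FPKM in Epiblastoids of day 4, 12.3 FPKM in the 46C line and 6.53 FPKM in CMT P11. Cox6b2, the testis form of subunit VIb, had 34.2 and 45 FPKM in mESCs and 7.2 to 19.1 FPKM elsewhere, and it changed by −1.80 ± 0.37, −2.04 ± 0.37 and −1.67 ± 0.34 in EpiLCs, EpiSCs and first-set fPSCs (limma adjusted p = 0.00175, 3.86e-04 and 9.74e-04). The broad form Cox6b1 fell as well, with changes of −1.38 ± 0.25, −1.45 ± 0.25 and −1.37 ± 0.23 (limma adjusted p = 6.42e-04, 2.35e-04 and 2.07e-04), from 224 and 286 FPKM in mESCs to 69.8 to 224 FPKM in the other libraries.

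Cox7b2, the second form of subunit VIIb, was listed at 2.75 and 8.66 FPKM in mESCs and 1.2 and 2.49 FPKM in EpiLCs. It was listed at 0 in both EpiSC libraries and in P10, P20 and P30, so no fold is given there. The other fPSC libraries listed it at 0 as well, apart from 0.47 FPKM in P1 and 0.24 FPKM in 46C. Cox4i2, the hypoxia-linked form of subunit IV, stayed at or below 3.82 FPKM and passed 1 FPKM only in mESCs replicate 1 (2.65), Epiblastoids of day 4 (3.82) and 46C (1.64). The broad form Cox4i1 had 415 and 403 FPKM in mESCs, 116 and 200.5 in EpiLCs, 213 and 108 in EpiSCs and 116 to 185 in first-set fPSCs; it changed by −1.42 ± 0.32, −1.43 ± 0.32 and −1.55 ± 0.29 (limma adjusted p = 0.00311, 0.00180 and 5.58e-04). Cox4i1 overlaps the annotated gene Gm20388 on the same strand, so its level is uncertain. Cox6a1, the broad form of subunit VIa, had 559.9 and 617 FPKM in mESCs and 107 to 306 FPKM elsewhere and changed by −1.95 ± 0.26, −1.96 ± 0.26 and −1.74 ± 0.24 (limma adjusted p = 6.50e-05, 3.22e-05 and 4.70e-05).

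**Figure D2:**
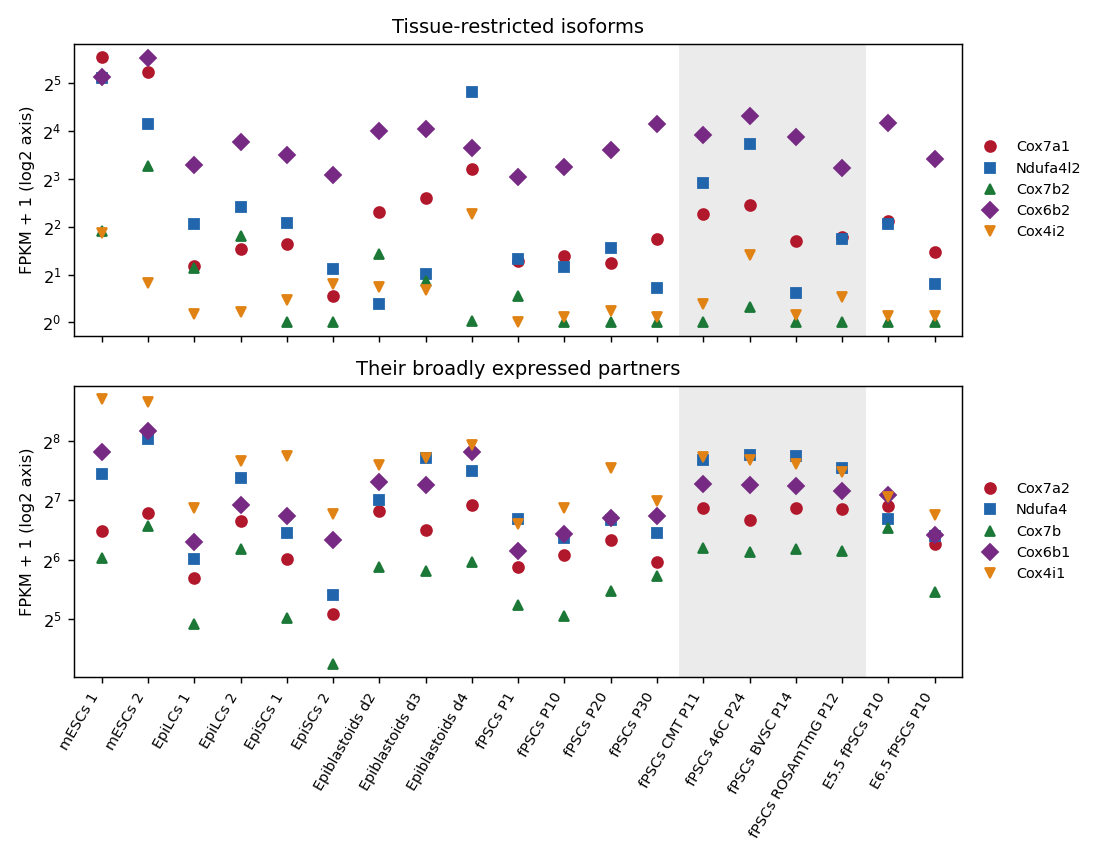
FPKM + 1 on a log2 axis in each of 19 libraries for 5 tissue-restricted complex IV subunits (top) and their broadly expressed partners (bottom); grey marks the second protocol set. Cox7a1 is at 45.7 and 36.8 FPKM in mESCs and at or below 8.29 FPKM in all other libraries, while Cox7a2 stays between 32.8 and 121 FPKM.

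Against mESCs, EpiLCs had 36 members lower and 1 higher of 81 tested (45.7%), where 37.9% of all 12562 genes tested were called (limma adjusted p under 0.05 and a fold of at least 1.5). The share lower was 44.4% of members against 21.9% of all genes, and the median change was −0.72 against −0.06. Complex IV had 10 of 17 lower, complex III 5 of 8, complex I 16 of 35, complex V 4 of 15 and complex II 1 of 4. After removal of the length trend, 28 were lower and 3 higher, where 20.2% of all genes were lower and 18.5% were higher. The count fell without mESCs replicate 2 and without EpiLCs replicate 1, the library with the lower members, and rose without EpiLCs replicate 2. The shares of all genes in those fits are not given here, so no result about the members is read from them. Ndufa3, an accessory subunit of complex I, was at 45.7 and 71.5 FPKM in mESCs and at 8.8 and 14.2 in EpiLCs, a change of −2.25 ± 0.31 (limma adjusted p = 7.94e-05). Atp5f1, subunit b of the ATP synthase stalk, was the 1 member that rose, from 55.5 and 67.2 FPKM in mESCs to 75.1 and 158 FPKM (0.82 ± 0.27, limma adjusted p = 0.0249); without EpiLCs replicate 2 the change was 0.29 and without mESCs replicate 1 it was 0.69, and neither was called.

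Of the core subunits described here, only Sdhb was called in EpiLCs. Sdhb, the iron-sulfur subunit of complex II, had 108 and 109 FPKM in mESCs and 30.8 and 64.6 in EpiLCs (−1.26 ± 0.26, limma adjusted p = 0.00200). Sdha, Sdhc and Sdhd of the same complex, Ndufs1 and Ndufv1 of the complex I core, Uqcrc1 and Uqcrfs1 of complex III and Atp5a1 and Atp5b of complex V were not called. Their changes ran from −0.55 (Sdhd) to 0.17 (Uqcrfs1). Their median transcripts, from 815 nt (Sdhc) to 2900 nt (Sdha), are longer than the member median of 687 nt. Members of 1200 to 1800 nt and of 1800 to 2700 nt had median changes of −0.45 and −0.48. The part of transcript length in these changes was not tested.

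EpiSCs had 61 of 81 members lower than mESCs (75.3%) and 0 higher, where 55.4% of all genes were called, 29.7% lower and 25.8% higher. The median change was −1.08 against −0.08 over all genes. Complex IV had 16 of 17 lower (median −1.66), complex III 7 of 8 (−1.44), complex V 11 of 15 (−1.07), complex I 25 of 35 (−1.06) and complex II 2 of 4 (−0.51). After removal of the length trend 48 were lower and 0 higher, where 55.0% of all genes were called, 27.8% lower and 27.2% higher. The count moved when 1 library was left out, and the shares of all genes in those fits are not given here. After Cox7a1 and Ndufa4l2 the largest fall was in Ndufb2, an accessory subunit of complex I with 21.1 and 41 FPKM in mESCs and 4.65 and 1.67 FPKM in EpiSCs (−2.97 ± 0.36, limma adjusted p = 1.10e-05). Ndufb2 overlaps Adck2 on the same strand and Braf on the other.

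Among the core subunits in EpiSCs, Ndufs1, the largest subunit of complex I, had 40.8 and 38.5 FPKM in mESCs and 14.8 and 16.5 in EpiSCs (−1.29 ± 0.20, limma adjusted p = 9.45e-05). Atp5b went from 1132 and 1110.0 FPKM to 604 and 505 (−1.02 ± 0.21, limma adjusted p = 9.22e-04), and Uqcrc1, a core protein of complex III, from 208 and 176 to 91.2 and 107 (−0.95 ± 0.24, limma adjusted p = 0.00378). Ndufs1, Atp5b and Uqcrc1 held under every alternative, although Atp5b shares its strand and position with Baz2a. Sdhb fell by 1.61 ± 0.26 (limma adjusted p = 1.76e-04). Ndufv1 (−0.65 ± 0.16) and Sdhd (−0.79 ± 0.25) were called too, with limma adjusted p = 0.00378 and 0.0145, but not after removal of the length trend (−0.44 and −0.52). Ndufv1 was also not called without EpiSCs replicate 2 (−0.51), nor Sdhd without mESCs replicate 2 (−0.59), EpiSCs replicate 1 (−0.77) or EpiSCs replicate 2 (−0.81). Among those described here, Sdha (−0.23 ± 0.14), Sdhc (0.13 ± 0.17), Atp5a1 (−0.36 ± 0.19) and Uqcrfs1 (−0.42 ± 0.19) were not called. These EpiSC libraries are the ones with the fibroblast marker sums of 721 and 874 FPKM.

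First-set fPSCs had 47 members lower and 2 higher than mESCs (60.5%), where 50.1% of all genes were called and 31.1% were lower; the median change was −0.89 against −0.17. Complex IV had 12 of 17 lower (median −1.25), complex V 9 of 15 (−0.82), complex I 19 of 35 (−0.69), complex III 5 of 8 (−0.80) and complex II 2 of 4 (−0.60). After removal of the length trend 33 were lower and 5 higher, where 25.6% of all genes were lower and 23.9% were higher (19.1% were higher before). With the second-set fPSCs in their place, 28 were lower and 2 higher. The share of all genes in that setting is not given here, so this count is not read as a result about the members. Ndufs1 was at 15.9, 18.9 and 17.7 FPKM in first-set fPSCs, below both mESC libraries (−1.14 ± 0.18, limma adjusted p = 1.43e-04), and at 17.1 to 27.3 FPKM in second-set fPSCs. Sdhb was at 36.6, 39.8 and 31.5 FPKM (−1.57 ± 0.24, limma adjusted p = 1.13e-04) but at 71.4 to 85.9 FPKM in second-set fPSCs, where the change of −0.46 was not called. Atp5b fell to 581, 602 and 593 FPKM (−0.92 ± 0.19, limma adjusted p = 0.00112). Sdhd (−0.89 ± 0.23, limma adjusted p = 0.00454) was not called without mESCs replicate 2 (−0.69), and second-set fPSCs turned its direction (0.31). Uqcrc1 (−0.59 ± 0.22, limma adjusted p = 0.0328) was not called without mESCs replicate 1 (−0.47), mESCs replicate 2 (−0.71), P10 (−0.60) or P30 (−0.38). Sdha (−0.21 ± 0.12) and Atp5a1 (−0.14 ± 0.17) were not called.

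Atp5g1 (chr11:95930166-95936984, mm9, minus strand), which encodes subunit c of the ATP synthase rotor, went the other way in first-set fPSCs. It had 286, 313 and 288 FPKM there against 168 and 156 in mESCs (0.87 ± 0.33, limma adjusted p = 0.0382), 115 and 189 in EpiLCs (1.00 ± 0.33, limma adjusted p = 0.0364) and 161 and 70.1 in EpiSCs (1.46 ± 0.33, limma adjusted p = 0.00382). Second-set fPSCs had 164 to 185 FPKM, below every first-set library (−0.76 ± 0.27, limma adjusted p = 0.0473). The fPSCs from E5.5 epiblasts had 322 FPKM and those from E6.5 epiblasts 162 FPKM. The call against mESCs did not survive leaving out any 1 of the libraries compared (0.81 to 0.92), that against EpiSCs did not survive leaving out EpiSCs replicate 2 (0.87), and that between the sets did not survive leaving out any 1 library (−0.79 to −0.72). Atp5g2 and Atp5g3 encode the same mature protein; they had 173 to 202 and 363 to 399 FPKM in first-set fPSCs and 155 to 174 and 184 to 343 FPKM in second-set fPSCs. Atp5sl, a member by name that is known as an assembly factor of complex I, was the other one higher than in mESCs, at 18.3, 21.1 and 21.6 FPKM against 12.2 and 13.3 (0.63 ± 0.19, limma adjusted p = 0.0140; 0.58 and not called without mESCs replicate 1).

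First-set fPSCs were also compared with the other states. First-set fPSCs and EpiLCs differed in 4 members (4.94%), where 24.6% of all genes were called and 9.23% were higher, and the median change was −0.02. The 4 were Atp5g1 (higher) and Atp5f1, Ndufs1 and Cox7b2 (lower), and the same 4 genes were called under all 6 scalings. Atp5f1 was at 36.1, 39 and 28.4 FPKM against 75.1 and 158 (−1.64 ± 0.24, limma adjusted p = 3.32e-04), and Ndufs1 was at 15.9 to 18.9 against 30.7 and 38.2 (−0.93 ± 0.18, limma adjusted p = 0.00197). Atp5g1 was no longer called without EpiLCs replicate 1 (0.64) or without any 1 of the fPSC libraries (0.96 to 1.02). The count was 11, all lower, without EpiLCs replicate 1, and 7 (4 higher and 3 lower) without EpiLCs replicate 2. With the second-set fPSCs it was 11 higher and 3 lower, and no direction for the members as a group is read from this comparison. With the length trend removed, 3 members were higher and 3 lower, where 12.6% and 12.8% of all genes were. Among all genes, this step moved the calls from 1159 higher and 1936 lower to 1419 and 1449.

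First-set fPSCs had 9 members higher than EpiSCs and 0 lower (11.1%), where 30.2% of all genes were called, 9.75% higher and 20.4% lower. The median change was 0.36 against −0.04. After removal of the length trend 13 were higher and 1 lower, where 14.8% of all genes were higher and 18.1% were lower. The count fell without EpiSCs replicate 2. The count was 18 with upper-quartile scaling, 23 with all 7 fPSC libraries as 1 group and 42 with the second-set fPSCs, where all 42 were higher. The shares of all genes in these settings are not given here, and between the sets 18.0% of all genes were higher and 7.66% lower. These counts are therefore not read as a result about the members. Ndufa5, an accessory subunit of complex I, had 26.7, 26.6 and 27.9 FPKM in first-set fPSCs against 13.8 and 7.74 in EpiSCs (1.30 ± 0.23, limma adjusted p = 7.26e-04), a call that held under every alternative. Uqcr11, a small subunit of complex III, had 46.5, 50.5 and 62.6 FPKM against 26.9 and 21.2 (1.11 ± 0.30, limma adjusted p = 0.0125; 0.95 and not called without EpiSCs replicate 2).

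EpiSCs had 17 members lower than EpiLCs and 0 higher (21.0%), where 45.2% of all genes were called, 21.4% lower and 23.8% higher. The share lower was thus close to that of all genes, while the share higher was not. The median change was −0.41 against −0.03. After removal of the length trend 13 were lower and 1 higher, where 22.3% of all genes were lower and 23.7% were higher. The count rose without EpiLCs replicate 1 and fell without EpiLCs replicate 2 or EpiSCs replicate 2. The shares of all genes are not given here for these fits. Atp5f1 (31.8 and 25.6 against 75.1 and 158 FPKM, −1.90 ± 0.27, limma adjusted p = 8.01e-05) and Ndufs1 (−1.09 ± 0.20, limma adjusted p = 5.76e-04) held in all of these. Ndufb2 fell by 1.32 ± 0.36 (limma adjusted p = 0.00795) and was not called without EpiSCs replicate 2 (−0.77).

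**Figure D3:**
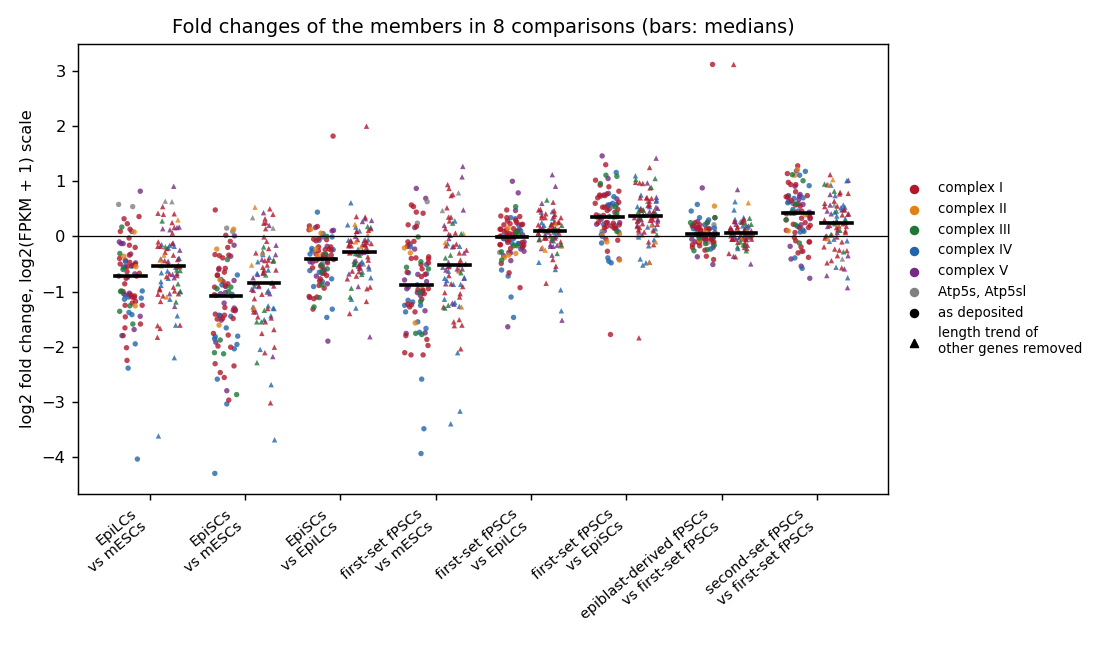
Log2 fold changes of the members in 8 comparisons, coloured by complex, as deposited (circles) and after removal of the length trend of the other genes (triangles); bars are medians. The medians against mESCs are −0.72 (EpiLCs), −1.08 (EpiSCs) and −0.89 (first-set fPSCs), and the single high point in the epiblast-derived comparison is Ndufs5 at 3.12.

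Between the protocol sets, the share of members called was close to that of all genes. Of 81 tested, 21 were higher and 1 (Atp5g1) lower (27.2%), where 25.6% of all genes were called, 18.0% higher and 7.66% lower. The median change was 0.42 against 0.15 over all genes. Estimated depth also differed, at 15.8 to 16.2 M fragments in the first set and 23.5 to 25.8 M in the second. The part of depth in these changes was not tested. After removal of the length trend 12 were higher and 3 lower, where 22.4% of all genes were called, 10.8% higher and 11.7% lower. Over all genes the calls went from 2255 higher and 962 lower to 1217 and 1317, so this step changes the balance of directions between the sets. The count was 14 without P30 and 14 without CMT P11. With CMT P11 as the only second-set library, which keeps the line the same, 0 members and 785 genes were called by limma. That fit has 1 library in an arm, whose spread is taken from the other groups, and CMT P11 had also been cryopreserved. The changes of 3 genes described next were then 1.13 (Sdhd), 1.26 (Atp5l) and 1.18 (Ndufa4), none of them called.

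Among the called members whose sets did not overlap, the largest rises were in Sdhd, Atp5l and Ndufa4. Sdhd (chr9:50404443-50411954, mm9, minus strand), a membrane anchor of complex II, had 46.3, 44.8 and 38.2 FPKM in the first set and 95.1, 86.1, 117 and 105 FPKM in CMT, 46C, BVSC and ROSAmTmG (1.21 ± 0.19, limma adjusted p = 6.03e-04). Atp5l, a small membrane subunit of ATP synthase, had 55.9 to 73 FPKM against 144 to 160.0 (1.19 ± 0.31, limma adjusted p = 0.0108), and Ndufa4 had 81.5 to 101 against 186 to 216 (1.18 ± 0.30, limma adjusted p = 0.00808). In none of the 3 genes did the sets overlap, and CMT P11 lay within the range of the other second-set lines for Sdhd and Ndufa4 and above it for Atp5l. Atp5l has 3 pseudogenes with entries of their own in the table, so its level is uncertain. These 3, with Sdhb and 8 more, were the 12 members called higher under all 6 scalings.

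Changes by transcript length took another shape between the protocol sets than between EpiSCs and mESCs. Between the sets, members under 500 nt changed by a median of 0.63, those of 500 to 800 nt by 0.43, those of 800 to 1200 nt by 0.50 and those of 1200 to 1800 nt by 0.44. Other genes changed by 0.50 under 500 nt and by 0.12 to 0.17 in every longer class. Between EpiSCs and mESCs, members under 500 nt changed by −2.22, those of 500 to 800 nt by −1.42, those of 800 to 1200 nt by −0.87 and those of 1200 to 1800 nt by −0.83. Other genes went from −0.58 under 500 nt, through −0.40, −0.37 and −0.20, to 0.21 above 4000 nt. Within each of these classes the members' median lay beyond that of the other genes in the same direction. The class under 500 nt is not matched in length, since the median transcript there was 420 nt for members and 140 nt for other genes. Classes under 20 members (all but 500 to 800 nt) are thinly filled, with 10, 14 and 12 members.

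**Figure D4:**
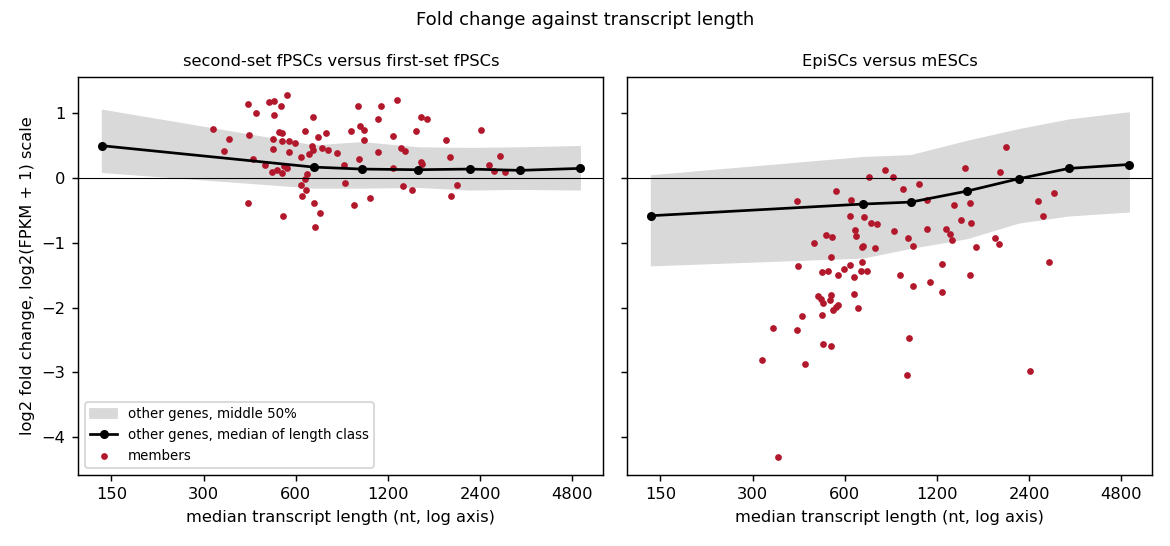
Log2 fold change (vertical axis) against median transcript length in nt (horizontal log axis) for second-set against first-set fPSCs (left) and EpiSCs against mESCs (right); red points are members, the black line joins medians of other genes by length class, and grey covers their middle 50%. Other genes under 500 nt have medians of 0.50 on the left and −0.58 on the right, and members under 500 nt have 0.63 and −2.22. In that class the median length is 140 nt for other genes and 420 nt for members.

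Between fPSCs P1 and the mean of P10, P20 and P30, with no replicate of P1, 21 of 79 members were lower in P1 by a fold of 1.5 or more (26.6%) and 1 was higher. Over all genes 9.84% were lower and 13.7% were higher. The median difference of the members was −0.35 against 0.02 over all genes. The largest shift by complex was in complex V, with a median of −0.54. Atp5b had 324 FPKM in P1 against 581 to 602 later, and Atp5g1 had 114 against 286 to 313.

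Epiblastoids had 1 library a day, so their differences have no replicate check. From day 2 to day 3, 18 of 80 members rose past a fold of 1.5 (22.5%) and 5 fell (6.25%), where 13.4% and 7.90% of all genes did. With upper-quartile scaling the numbers were 8 and 7, so the count on day 3 depends on the scaling. From day 3 to day 4, 10 were higher (12.5%) and 6 lower (7.50%), against 15.5% and 22.2% of all genes. Atp5e, the epsilon subunit of ATP synthase, had 46.1, 135 and 59.9 FPKM on days 2, 3 and 4, and Ndufa13 of complex I had 76.7, 39.3 and 80.3. Ndufs4, an accessory subunit of complex I, went from 21.7 and 33.3 FPKM to 4.19 on day 4, and Ndufa4l2 went from 0.311 and 1.02 FPKM to 27.1.

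Ndufs5 (chr4:123389953-123395445, mm9, minus strand), an accessory subunit of complex I, differed widely between fPSC lines. It was the 1 member of 81 called between epiblast-derived and first-set fPSCs (1.23%, where 1.31% of all genes were called and 0.613% were higher), and it was also the 1 member called after removal of the length trend, where 0.841% of all genes were higher. The epiblast-derived lines had 66.8 (E5.5) and 38 FPKM (E6.5), against 4.25, 5.34 and 5.16 FPKM at P10, P20 and P30 (3.12 ± 0.67, limma adjusted p = 0.0406). In the second set, BVSC and ROSAmTmG had 32.7 and 32.3 FPKM, while CMT P11 and 46C had 4.85 and 5.45 FPKM. The 2 mESC and 2 EpiSC libraries lay between, at 18.3, 27.1, 19.8 and 18.8 FPKM, and the EpiLCs had 3.68 and 6.04 FPKM. The size of the difference stayed at 2.73 to 3.52 when any 1 library was left out, but none of these fits called it, and it was also not called with no filter on low values (3.12).

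In fPSCs P10, most members carried an active promoter profile. H3K4me3, a mark of active promoters, had a mean within 1000 bp of the start of 7.84 RPKM (median over 83 members with 1 annotated position) against 2.61 RPKM over 22089 protein-coding genes, and 78 of 83 (94%) lay at or above the median of all genes. H3K27me3, a mark of Polycomb repression, was 0.0965 against 0.289 RPKM, with 13 members (15.7%) at or above the median of all genes. DNA methylation was 0.195 against 0.357 (fraction methylated in 100 bp windows, with no coverage in the file), and 47 members (56.6%) were at or below 0.2, against 32.6% of all genes. There was 1 file per mark, so these values have no replicate error.

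Other members departed from this profile. The 4 members at a methylation level of 0.8 or more were Cox6a2 (0.848), Cox8b (0.873), Cox7b2 (0.909) and Cox8c (0.928), with H3K4me3 of 0.124 to 0.808 RPKM. These are the members below 1 FPKM in all libraries, plus Cox7b2, which was listed at 0 in P10. Cox7a1, with 7 CG pairs in its window above, had H3K4me3 of 2.86 RPKM and a methylation level of 0.579, against 9.89 RPKM and 0.178 at Cox7a2. Within 500 bp of the start the methylation levels were lower, at 0.224 for Cox7a1 and 0.033 for Cox7a2. Cox4i2 had the highest H3K27me3 of the members, 1.93 RPKM, with a methylation level of 0.668 (0.37 within 500 bp). Expressed members departed from the profile too. Ndufa13, at 31.3 FPKM in P10, had a methylation level of 0.681 (0.854 within 500 bp), H3K4me3 of 3.36 RPKM and H3K27me3 of 1.03 RPKM. Ndufa13 overlaps Tssk6 on the other strand. The starts used for these marks are those of GENCODE vM1 and not of RefSeq, and whether they are the starts in use was not tested. Ndufc2 had a methylation level of 0.519 (0.369 within 500 bp). Ndufa8 (0.45), Sdhc (0.45) and Cox7c (0.418 RPKM) also lay above the H3K27me3 median of all genes. Ndufa8, Ndufc2 and Cox7c were chosen after their values were seen. The marks analysed here were of fPSCs P10, so they are not compared between states.

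**Figure D5:**
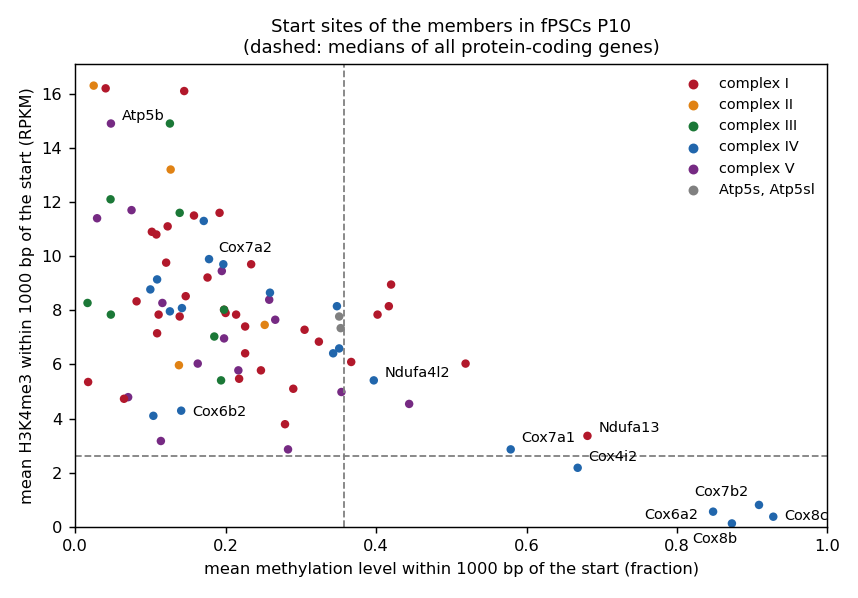
Mean H3K4me3 (RPKM, vertical axis) against mean methylation level (fraction, horizontal axis) within 1000 bp of the start of each member in fPSCs P10; dashed lines are the medians of all protein-coding genes (2.61 RPKM and 0.357). Cox6a2, Cox8b, Cox7b2 and Cox8c lie at 0.848 to 0.928 methylation with under 1 RPKM of H3K4me3, and most other members lie at the upper left.

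Of the 84 members, 66 had a RefSeq promoter window (71 windows, GRCm38.p6). Windows were searched on both strands for the palindromic site of NRF1, a known regulator of respiratory genes (the letters in capitals in the sequences below), CCGGAAG (the ETS site that GABP also uses) and AAGATGGC (YY1). The NRF1 letters were in 5 of 66 genes (7.58%) against 1.07% of 27025 genes, the ETS letters in 16 (24.2%) against 9.93% and the YY1 letters in 9 (13.6%) against 3.19%. At least 1 of the 3 was in 27 genes (40.9%) against 13.4%. The members' windows also held more CG pairs (median 19 against 7), and the share of motif matches at equal CG content was not computed. The 5 NRF1 matches are shown with their surroundings and the motif in capitals, since they are the whole set; a match is a description of these letters and not of binding. They lie at chr15:102671065-102671104 (minus strand), chr5:108434425-108434464 (minus), chr5:115349096-115349135 (minus), chr17:56717687-56717726 (plus) and chr9:108936663-108936697 (plus), in the order printed.
Atp5g2: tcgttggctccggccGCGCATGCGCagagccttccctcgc
Atp5k: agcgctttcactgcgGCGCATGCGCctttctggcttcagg
Cox6a1: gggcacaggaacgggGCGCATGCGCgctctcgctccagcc
Ndufa11: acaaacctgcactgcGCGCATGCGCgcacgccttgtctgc
Uqcrc1: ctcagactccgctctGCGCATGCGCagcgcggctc

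The members took a similar share of the counts in 4 clones of fPSCs. The count tables hold 182 cells of 4 clones (46, 46, 46 and 44), where the labels describe 192, and 1 cell name heads 2 columns while no 2 cells have equal counts. The clones had 1501395, 3243072, 4712214 and 2449377 counts in all and a median of 3425, 4198, 3440 and 3348 genes per cell. Pooled over cells, the members took 2.23, 2.39, 2.39 and 2.29% of the counts of clones 1 to 4. Per cell, the median share in a clone was 2.25 to 2.28%, with lower quartiles of 1.85 to 2.09% and upper quartiles of 2.42 to 2.52%. Of 81 members listed, 73 reached 10 CPM (counts scaled to the same total in each clone) in all 4 clones. Cox7c, a small subunit of complex IV chosen after its values were seen, was at 1885 ± 247 CPM (SD over 4 clones) and Atp5b at 1126 ± 143 CPM, and counts were found in 99.5% and 95.6% of cells.

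The tissue-restricted forms differed among themselves in single cells. Cox6a2, Cox8b and Cox8c are not among the 81 members listed for the single cells, so no count and no limit is given for them. Why they are not listed was not tested. The broadly expressed Atp5g2 had counts in only 15.4% of cells, so few counts do not limit the share of cells that express a gene. Cox7b2 had 1 count, Ndufa4l2 had 5 counts in 2 cells, and Cox7a1 had 96 counts in 11 cells (6.04%). Cox4i2 had 65 counts in 33 cells (18.1%) and Cox6b2 had 192 counts in 37 cells (20.3%), more cells than Atp5g2. Ndufs5 had 24 counts in 15 cells (8.24%), at 1.83 ± 1.39 CPM. These tables hold no other cell type, so the share that RNA from other cells would give was not measured, and the labels do not state the line of the clones.

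Lists of related genes were set beside the members against mESCs, where 21.9, 29.7 and 31.1% of all genes were lower in EpiLCs, EpiSCs and first-set fPSCs. Assembly factors of the complexes had 5, 13 and 8 of 41 lower in EpiLCs, EpiSCs and first-set fPSCs and 3, 2 and 5 higher. The tricarboxylic acid cycle had 4, 11 and 8 of 18 lower and 0, 1 and 0 higher, and electron carriers and ubiquinone enzymes had 5, 7 and 7 of 16 lower and 3, 3 and 2 higher. Proteins of the mitochondrial ribosome had 10, 36 and 17 of 77 lower and 5, 1 and 8 higher, with medians of −0.09, −0.62 and −0.08. The cytosolic ribosome, which is no part of the mitochondrion, had 39, 79 and 70 of 96 lower and 0, 2 and 0 higher, with medians of −0.73, −1.64 and −1.11. The regulators of respiratory genes had 3, 7 and 4 of 19 lower and 5, 4 and 5 higher. These lists may be read beside the members' counts of 36, 61 and 47 of 81 and medians of −0.72, −1.08 and −0.89; the difference between lists was not tested.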

How the data were processed

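Bulk RNA-seq covered 19 libraries, and single-cell RNA-seq, ChIP-seq and MethylC-seq covered fPSCs. The authors deposited FPKM values made with cutadapt 1.11, TopHat2 2.1.1 on mm9 and Cufflinks 2.1.1. The deposited single-cell tables hold counts per gene from Smart-seq2, and the labels name no molecular identifiers. The deposited ChIP-seq files hold RPKM in 100 bp bins (Trim Galore, Bowtie2 2.2.2, mm9), with bins at 0 left out. The deposited MethylC-seq file holds the methylated fraction in 100 bp windows (BS-Seeker2, mm9), with no coverage, so its depth is unknown. The authors combined ChIP-seq replicates for their later analysis; whether the MethylC-seq file combines replicates is not given in the sources used here.

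From 23608 entries, 4 with doubled names were left out. The 12562 genes (81 members) that reached 1 FPKM in 2 or more libraries were tested with limma 3.58.1 (R 4.3.3) on log2(FPKM + 1), which understates changes of low genes, in 1 fit of 15 libraries in 6 groups with 9 residual degrees of freedom. DESeq2, which the study used, needs counts. A change was called at an adjusted p (Benjamini-Hochberg) below 0.05 with at least a 1.5-fold difference. Epiblastoids and fPSCs P1 have 1 library each and were compared without a test. Single-library differences used the same scale. Gene positions and median transcript lengths came from GENCODE vM1 (mm9), and a length was found for 82.3% of entries. Length trends were loess curves (span 0.3) on each library's log2 deviations, fitted without the members and the ribosomal genes or, as planned, over all genes. Tests were checked on simulated data. Alternatives were a pseudocount of 0.1, no filter, other scalings, other groupings, a replicate block and leaving out each library.

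Genes named were isoform pairs of complex IV and subunit c, core subunits, the 3 largest called changes without overlap per direction and comparison, and the largest change per direction between Epiblastoid days; others are said to be chosen after their values were seen. The members and lists were chosen with earlier results of these data known. Some members overlap other genes on the same strand (5) or the opposite strand (15), and pseudogenes of Atp5k, Atp5l and Uqcrh have entries of their own, so these levels are uncertain. One gene that the naming rule covers was left out of the text and is not reported here.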

Additional observations from a re-analysis of the deposited data

Results flagged for a closer look

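In the 4 second-set fPSC libraries, single libraries stood apart from the other 3 in 5 of 80 members tested by Dixon's test, which chance alone gives in about 1 in 20 groups. Among the members whose values bear on a comparison, Cox6c, a subunit of complex IV, had 22.6 FPKM in ROSAmTmG and 116 to 124 FPKM in the other 3 lines. Cox7a2 had 100.3 FPKM in 46C against 115 to 117 FPKM, and Atp5sl had 15.7 FPKM in 46C against 16.8 to 17 FPKM. Cox6c was chosen after its values were seen.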

How the results depend on the processing

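Of 74 pairs of a named gene and a comparison that were called, 36 kept their call under every alternative and 38 lost it under at least 1. The count for EpiSCs against EpiLCs (17) was 11 with the length trend over all genes removed, 9 with a trend on length and level removed, and 10 with only the groups compared. First-set fPSCs against mESCs (49) gave 31 with all 7 fPSC libraries as 1 group and 30 with the second set only, where Sdhd turned from −0.89 to 0.31. First-set fPSCs against EpiLCs (4) gave 7 with only the groups compared and 14 with the second set only, and turned from mostly lower to mostly higher there and without EpiLCs replicate 2 (7). First-set fPSCs against EpiSCs (9) gave 5 with no filter, 18 with upper-quartile scaling, 14 with the length trend of the other genes removed, 18 with only the groups compared, 23 with all 7 fPSC libraries and 42 with the second set only. The epiblast-derived comparison (1) gave 0 with no filter, and CMT P11 alone against the first set gave 0 in place of 22. Day 3 against day 2 gave 15 in place of 23 with upper-quartile scaling. The cause was not tested for any of these, and the counts stand without the shares of all genes called in the same settings.

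Leaving out 1 library gave 17 to 49 for EpiLCs and 45 to 64 for EpiSCs against mESCs, 3 to 41 for EpiSCs against EpiLCs, and 33 to 44, 3 to 11 and 2 to 13 for first-set fPSCs against mESCs, EpiLCs and EpiSCs. It gave 0 to 0 for the epiblast-derived comparison and 14 to 19 for second against first set. Where this leaves 1 library in a group, that library is assumed to vary like the others. These counts also stand without the shares of all genes called in the same fits, so they are not read as results about the members.

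The median promoter values of the members depended on the window, with H3K4me3 at 2.19 RPKM and H3K27me3 at 0.186 RPKM within 5000 bp (all genes 1.13 and 0.379) and methylation at 0.0286 within 500 bp (all genes 0.175).

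The differences of replicate 2 minus replicate 1, over 12562 genes, were correlated between groups. The correlations were 0.20 (mESCs and EpiLCs), −0.20 (mESCs and EpiSCs) and −0.13 (EpiLCs and EpiSCs), so the numbers are not taken to pair the samples. With a replicate block the counts were 37, 60 and 16 for EpiLCs against mESCs, EpiSCs against mESCs and EpiSCs against EpiLCs. With the EpiSC numbers crossed, chosen after seeing the data, the last 2 were 61 and 23. The trends without members, and with level, were also chosen after seeing the data.

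With 2 or 3 libraries a group and Epiblastoid depths of 39.5, 14 and 39.3 M fragments, small changes and levels under 1 FPKM cannot be resolved.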

Other observations

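Replicates of one group could differ widely in single members, which were chosen after their values were seen. Ndufb8, an accessory subunit of complex I, had 111 and 23.7 FPKM in the 2 mESC libraries, and Ndufv2, a core subunit of complex I, had 19.2 and 97.4 FPKM, in the opposite order. In the other 17 libraries Ndufb8 ranged from 34 to 109 FPKM and Ndufv2 from 26.3 to 83.1 FPKM. Ndufb8 overlaps Sec31b on the same strand.

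Between the protocol sets, 18.0% of all genes were higher and 7.66% lower. Beside these shares stood 35 of 96 cytosolic ribosome genes higher and 2 lower, 18 of 77 mitochondrial ribosome genes higher and 2 lower, and 12 of 41 assembly factors higher and 3 lower. Other genes under 800 nt had 184 of 895 higher and 65 lower, with a median of 0.24, and neither these nor the other lists were tested against all genes.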
